A study of Mus musculus with 77 samples.

Results

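The 10 peptide hormone genes Ghrl, Sst, Gcg, Ppy, Pyy, Gip, Cck, Gast, Nts and Gal were followed in mouse pancreatic ductal organoids that had been made to express the endocrine determinant Ngn3. They were chosen by name, from 46078 genes in the table, as hormones of the islet, stomach and intestine, together with the neuropeptides neurotensin and galanin. The organoids are 3-dimensional cultures grown from ducts of adult C57BL/6 mice, and all received a lentiviral Tet-on system with a GFP reporter. At 2 days of transgene induction the groups were GFP only, WT Ngn3, and 6S-A Ngn3, a form in which 6 serines followed by proline had been changed to alanine so that they cannot be phosphorylated. At 8 days the groups were WT Ngn3, 6S-A Ngn3, and 2 no-color control groups of cells without the reporter, from WT and from 6S-A Ngn3 organoids. Each group had 3 biological replicates, and 50 cells were sorted into each pool, which gave 1 library. The 2-day groups held 18 pools each. The 8-day groups held 4 retained pools of WT Ngn3 and 6 of each other group. Ngn3 was driven by the inducible promoter of the vector, the cells were of ductal origin, and the culture medium contained gastrin, so the groups are models of forced expression and not of islet development.

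Peptide hormones are made as long precursors, cut by prohormone convertases, trimmed, often amidated, and stored in dense-core granules. In the adult islet, Gcg encodes glucagon of alpha cells, Sst somatostatin of delta cells, Ppy pancreatic polypeptide, and Ghrl ghrelin, which is more plentiful in the stomach and in the fetal islet. Pyy, Gip and Cck are best known from enteroendocrine cells of the intestine, which also depend on Ngn3. Gast encodes gastrin of the gastric antrum, Nts neurotensin, and Gal galanin, a neuropeptide that inhibits insulin release. Ngn3 is a basic helix-loop-helix factor, and factors of this family bind E-boxes, with the letters CANNTG.

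The start regions of the genes with the most reads are printed because their levels carry the results, with CANNTG in capitals. They are RefSeq start windows of GRCm38, trimmed to the part that lies outside every annotated exon of GENCODE M21, and are given 5′ to 3′ on the gene's strand, here the minus strand for all 4.
Ghrl, chr6:113719881-113720161, minus strand: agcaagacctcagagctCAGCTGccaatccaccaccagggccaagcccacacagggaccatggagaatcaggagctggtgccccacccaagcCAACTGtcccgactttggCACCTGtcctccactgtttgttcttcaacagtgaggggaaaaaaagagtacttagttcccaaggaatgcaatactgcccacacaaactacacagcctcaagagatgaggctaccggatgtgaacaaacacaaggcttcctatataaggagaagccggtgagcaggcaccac
Sst, chr16:23890959-23891094, minus strand: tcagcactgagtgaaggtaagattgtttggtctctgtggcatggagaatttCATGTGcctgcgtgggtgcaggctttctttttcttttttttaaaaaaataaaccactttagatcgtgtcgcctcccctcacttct
Gal, chr19:3414545-3414794, minus strand: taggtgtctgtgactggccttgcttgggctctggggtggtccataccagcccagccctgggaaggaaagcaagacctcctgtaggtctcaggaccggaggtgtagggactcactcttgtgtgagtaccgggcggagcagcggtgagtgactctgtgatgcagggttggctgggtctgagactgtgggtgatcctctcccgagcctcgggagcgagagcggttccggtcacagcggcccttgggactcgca
Pyy, chr11:102107833-102108082, minus strand: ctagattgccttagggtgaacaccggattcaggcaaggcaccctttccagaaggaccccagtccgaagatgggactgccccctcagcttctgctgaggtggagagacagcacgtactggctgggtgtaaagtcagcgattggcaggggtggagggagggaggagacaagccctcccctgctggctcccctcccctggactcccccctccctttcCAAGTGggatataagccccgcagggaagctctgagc
The printed Ghrl stretch held 3 matches of CANNTG, those of Sst and Pyy 1 each, and that of Gal 0. Across whole windows of 300 bases, which is the length searched, 72.3% of 32851 RefSeq windows held at least 1 CANNTG on either strand, so a match sets no gene apart. All 10 genes had windows, 14 in all, and 12 of the 14 held CANNTG. The narrower letters CAGATG occurred in 17.2% of all windows and in 4 of the 14, and CAGCTG in 16.3% and in 3. Both are also CANNTG matches. The cyclic AMP response letters TGACGTCA occurred in 1.79% of all windows and in 1 of the 14, that of Sst, in the exonic part that is not printed.

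Retained pools had between 1501002 and 9202142 reads on genes, so that 3 reads, taken as the limit for a count of 0, equalled 0.326 to 2.00 CPM (reads per 1000000 on genes). One pool of WT Ngn3 at 8 days with 849278 reads fell below the study's read limit and was left out. Reads carry no molecular identifiers, so that such limits cover counting error only. Neurog3, the gene that encodes Ngn3, had at most 0.1 CPM in GFP only replicates and at most 0.9 CPM in no-color replicates. It stood at 95.2 to 219.1 CPM in the Ngn3 replicates of 2 days and at 7.6 to 47.5 CPM in those of 8 days, and its reads can come from the transgene or from the mouse gene. All 14 ductal markers had reads in every group, with summed levels of 11161 to 39494 CPM per replicate. The 12 acinar markers summed to at most 13.3 CPM, with Cpa1, Cela3b, Prss1, Pnlip and Ptf1a at 0 in every group. Pools within a biological replicate were technical repeats, and 6 of 149 pairs of them were near-identical (chi-square divided by the number of genes 1.59 to 2.35, others 5.21 to 55.7). These were repeats 2 and 3 of replicates 2 and 3 in the 3 groups of 2 days. At 8 days all pools of replicate 3 were of passage 5, and all others of passage 2.

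Galanin, ghrelin and somatostatin mRNA made up nearly all hormone reads, and the insulin genes were at or near 0. Summed over the 76 retained pools, Sst had 70947 reads, Ghrl 66210 and Gal 19177. Pyy followed with 5205, Gip with 1483, Cck with 388, Ppy with 92, Gcg with 47, and Gast and Nts with 8 each. Ghrl was found in 68 of 76 pools, Gal in 65 and Sst in 56, whereas Gip, Pyy and Cck were found in 16, 15 and 13 pools. Gcg, Ppy, Gast and Nts were found in 5, 4, 3 and 2 pools. The sum of the 10 genes was 1.33 ± 1.05 CPM (SD, n = 3) in GFP only cells, 181 ± 63.8 CPM with WT Ngn3 and 786 ± 248 CPM with 6S-A Ngn3 at 2 days. At 8 days it was 1302 ± 2234 CPM with WT Ngn3 and 1752 ± 1721 CPM with 6S-A Ngn3, against 8.07 ± 3.33 and 5.86 ± 3.60 CPM in the no-color cells of WT and of 6S-A Ngn3 organoids. The SD at 8 days was close to or above the mean. In a pool of 50 cells, fewer cells that make a hormone and less hormone RNA per cell cannot be told apart.

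**Figure D1:**
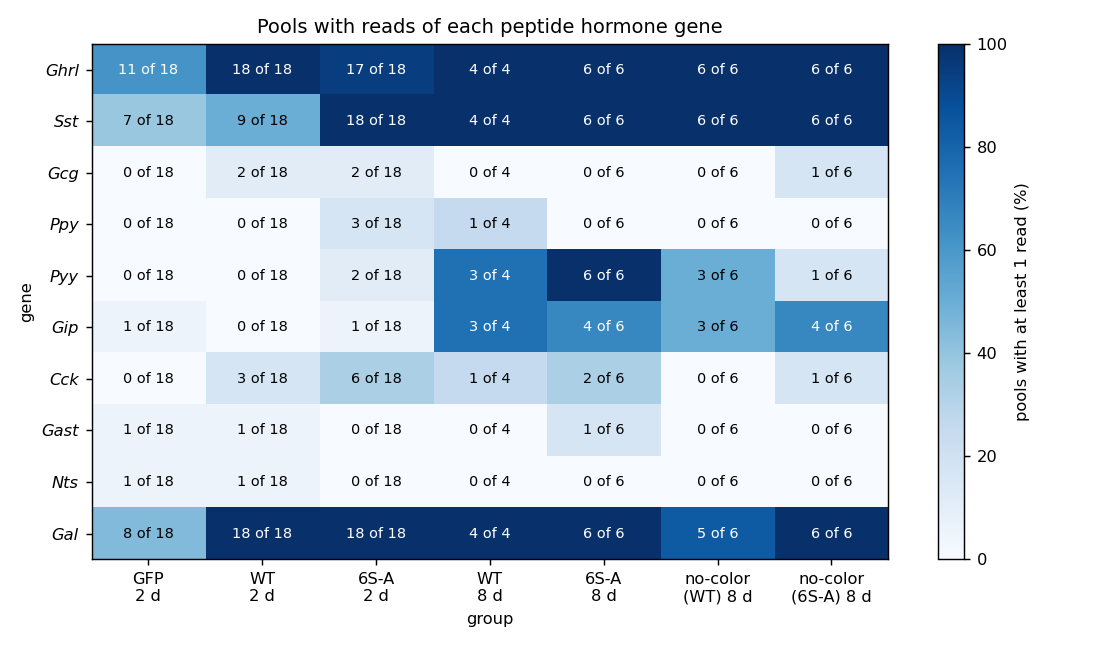
Number of retained pools with at least 1 read of each gene (rows) in each group (columns), colored by the share of pools in percent. Ghrl and Gal had reads in all 18 WT Ngn3 pools of 2 days and Sst in all 18 pools of 6S-A Ngn3, while Gcg, Ppy, Gast and Nts were at 0 in most pools of every group.

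A read somewhere in a pool was common even among the controls, so that the level carried more than the presence. In GFP only cells, 11 of 18 pools had Ghrl reads, 7 had Sst reads and 8 had Gal reads, with highest pools at 1.13, 1.12 and 3.38 CPM. Among the 12 no-color pools, all had Ghrl and Sst reads and 11 had Gal reads, and the highest pools were at 4.59, 15.4 and 3.48 CPM. A pool held reads of 0 to 3 of the 10 genes in GFP only cells (median 2), of 2 to 4 with WT Ngn3 (median 3) and of 3 to 6 with 6S-A Ngn3 (median 3.5) at 2 days. Thinning every pool to 1501002 reads gave medians of 1, 3 and 3. At 8 days the counts were 4 to 6 in both Ngn3 groups, 2 to 5 in no-color cells of WT organoids and 3 to 5 in those of 6S-A organoids, with medians of 5, 5.5, 4 and 4. Thinning moved the median of 6S-A Ngn3 to 3.5, with a range of 3 to 6, against 5 for WT Ngn3 and 3 for both no-color groups. At a level of at least 100 CPM, no control pool held any of the 10 genes, and the highest count was 4 genes, in a WT Ngn3 pool of 8 days.

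Scaled by exon length, which allows genes to be compared, Ghrl led with WT Ngn3 at 2 days at 102 ± 72.4 CPM per kb (SD, n = 3), followed by Gal at 80.8 ± 22.1 and Sst at 7.84 ± 12.95. Ghrl and Gal did not differ beyond their spread. With 6S-A Ngn3 at 2 days the order of means was Sst (344 ± 275 CPM per kb), Gal (322 ± 39.2) and Ghrl (257 ± 283), 3 levels within their spread. At 8 days Sst led in both Ngn3 groups. In WT Ngn3 cells Sst was at 824 ± 1411 CPM per kb, Ghrl at 492 ± 849, Pyy at 192 ± 332 and Gip at 73.1 ± 126. In 6S-A Ngn3 cells Sst was at 1500 ± 1305 CPM per kb, Ghrl at 565 ± 871 and Pyy at 78.5 ± 80.3. No neighbours in these 8-day orders differed beyond their spread.

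**Figure D2:**
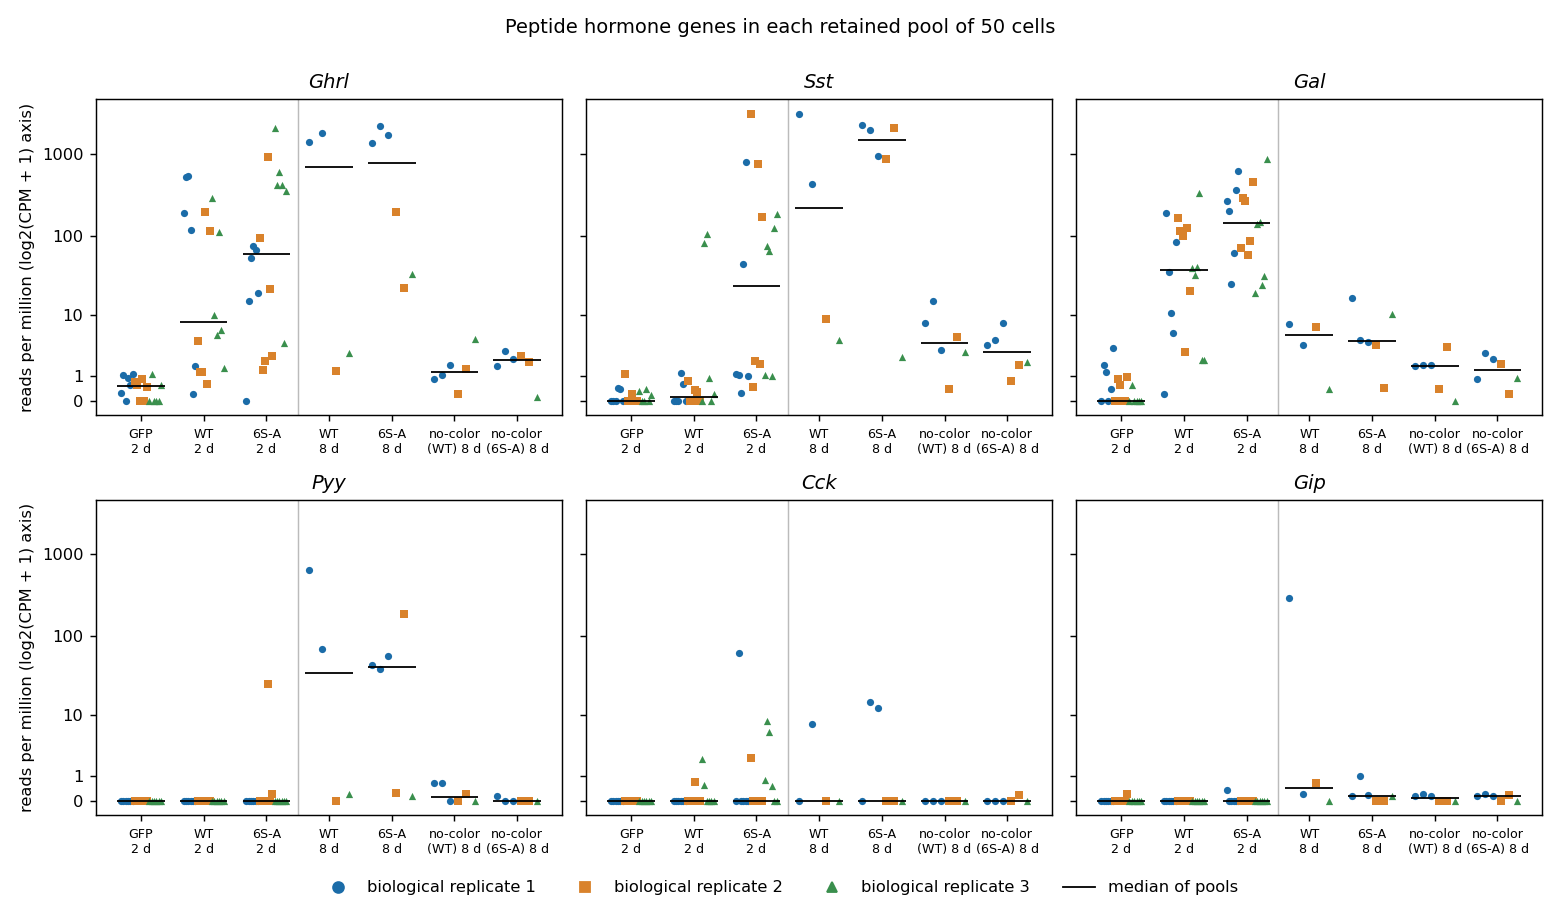
CPM of 6 hormone genes in each retained pool, on a log2(CPM + 1) axis, by group, with the symbol and color giving the biological replicate and the bar the median of the pools. At 2 days most pools of both Ngn3 groups lay above the GFP only range for Ghrl and Gal, while for Sst 11 of 18 pools of 6S-A Ngn3 and 3 of 18 of WT Ngn3 did, and at 8 days the pools of replicate 1 held the highest levels of Ghrl and Gip.

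The comparison with GFP only cells at 2 days asks which hormone genes respond to each form of Ngn3. Galanin mRNA (Gal, chromosome 19, 3409915 to 3414544) was the most even of the 3. Its replicates were at 1.16, 0.36 and 0.05 CPM in GFP only cells, at 51.9, 83.7 and 55.5 CPM with WT Ngn3, and at 279.5, 219.6 and 262.4 CPM with 6S-A Ngn3. The 3 groups did not overlap. Gal rose by a log2 fold change of 6.78 (SE 0.49, adjusted p = 1.87e-05) with WT Ngn3 and 8.75 (SE 0.51, adjusted p = 2.45e-06) with 6S-A Ngn3 (quasi-likelihood test of edgeR, p-values adjusted by Benjamini-Hochberg over 23844 genes). Of all genes tested, 6.56% rose and 5.23% fell with WT Ngn3, and 9.43% rose and 8.62% fell with 6S-A Ngn3. Both comparisons share the GFP only samples. With the first technical repeat alone, Gal was called with neither form, where 3.87% (WT) and 6.39% (6S-A) of all genes were called. Over pools, Gal ranged from 0.189 to 333 CPM with WT Ngn3 (median 37.8) and from 19.3 to 862 CPM with 6S-A Ngn3 (median 144). It exceeded the highest GFP only pool in 14 of 18 WT Ngn3 pools and in all 18 pools of 6S-A Ngn3.

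Ghrelin mRNA (Ghrl, chromosome 6, 113716119 to 113719880) rose with both forms but varied widely from pool to pool. Its replicates were at 0.71, 0.44 and 0.24 CPM in GFP only cells, at 200.1, 57.7 and 73.3 CPM with WT Ngn3, and at 39.1, 172.1 and 621.7 CPM with 6S-A Ngn3. All Ngn3 replicates lay above all GFP only replicates, and the WT and 6S-A Ngn3 replicates overlapped. The log2 fold change was 7.79 (SE 1.49, adjusted p = 0.0195) for WT Ngn3 and 9.09 (SE 1.53, adjusted p = 0.00762) for 6S-A Ngn3 (edgeR). A fit with a replicate block gave an adjusted p of 0.0577 for WT Ngn3, above the threshold. Without any one GFP only replicate it also lost the call for WT Ngn3, with adjusted p up to 0.0778. With WT Ngn3 the pools fell apart in level. Of the 18, 10 held at most 9.96 CPM and 8 held at least 112.6 CPM, with none between, and the pools above 100 CPM came from all 3 replicates. With 6S-A Ngn3, pools ranged from 0 to 2079 CPM (median 59.9), 6 were above 100 CPM, and 5 of these were of replicate 3. Repeats 2 and 3, a near-identical pair, were among the 5. Ghrl overlaps the genes Gm26982 and Gm44033 on the other strand, and the strand setting of the counting is not given in the sources used here, so that reads of these genes cannot be told apart from its own.

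Somatostatin mRNA (Sst, chromosome 16, 23889573 to 23890958) was higher than with GFP only in 6S-A Ngn3 cells. GFP only replicates were at 0.15, 0.24 and 0.15 CPM, WT Ngn3 replicates at 0.30, 0.22 and 16.4 CPM, and 6S-A Ngn3 replicates at 178.8, 471.2 and 93.6 CPM. The 6S-A Ngn3 replicates lay above all others, while 2 of the 3 WT Ngn3 replicates were near the GFP only level. For 6S-A Ngn3 the log2 fold change was 10.32 (SE 2.04, adjusted p = 0.0156). For WT Ngn3 it was 4.84 (SE 2.23, adjusted p = 0.271), which did not pass in edgeR, although DESeq2 gave an adjusted p of 0.00836. The WT Ngn3 signal stood in technical repeats 2 and 3 of replicate 3, at 82.1 and 106.6 CPM, which are one of the near-identical pairs. The other 16 pools held at most 1.16 CPM. Among 6S-A Ngn3 pools Sst spanned 0.248 to 3099 CPM (median 23.6), with 9 pools at or below 1.99 CPM and 9 at or above 45.1 CPM. Without any one GFP only replicate the 6S-A Ngn3 call was lost, with adjusted p up to 0.0665.

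Cholecystokinin mRNA (Cck, chromosome 9, 121489824 to 121495694) was rare but passed the test with 6S-A Ngn3. GFP only pools held 0 Cck reads, WT Ngn3 replicates were at 0, 0.11 and 0.49 CPM, and 6S-A Ngn3 replicates were at 8.71, 0.23 and 1.60 CPM. Its mean with 6S-A Ngn3 was at least 27.9-fold higher than GFP only when 3 reads were assumed in each GFP only replicate (edgeR adjusted p = 0.0235). One pool of replicate 1, at 62.5 CPM, held 82.7% of the 6S-A Ngn3 reads. The call was lost without any one GFP only replicate, with adjusted p up to 0.0621, and without a filter on low counts (adjusted p = 0.147). In WT Ngn3 cells Cck did not pass (adjusted p = 0.348). Only 4 of the 10 hormone genes, Ghrl, Sst, Gal and Cck, had reads in at least 5 pools of 2 days and were tested, so that Cck was tested only because of its Ngn3 pools.

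The other 6 genes had too few reads at 2 days to be tested. Pyy, which encodes peptide YY (chromosome 11, 102106676 to 102107832), and the neighbouring Ppy (chromosome 11, 102099930 to 102101319) were both led by the same pool, technical repeat 4 of 6S-A Ngn3 replicate 2. It held 79 reads of Pyy (25.8 CPM) and 71 of Ppy (23.2 CPM), together with 910.5 CPM of Ghrl and 756.9 CPM of Sst. The 3 remaining 2-day pools with Pyy or Ppy reads, all of 6S-A Ngn3, held 1 read of either gene. Gcg (chromosome 2, 62474530 to 62483650) had 43 reads in 1 pool of WT Ngn3 replicate 1, which is 8.14 CPM, and 1 read in each of 4 other pools of either day. Gip (chromosome 11, 96024545 to 96030831), which encodes the glucose-dependent insulinotropic polypeptide, had 2 reads among all 54 pools of 2 days. Gast (chromosome 11, 100334407 to 100336996) had at most 5 reads in any pool and Nts (chromosome 10, 102481756 to 102490486) at most 7, and in both cases the highest pool was GFP only.

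The direct comparison of 6S-A with WT Ngn3 at 2 days asks whether removing the phosphorylation sites changes hormone gene expression. No hormone gene passed after adjustment in edgeR, where 3 of 23844 genes (0.0126%) passed in either direction. Gal was higher with 6S-A Ngn3 by 1.98 on the log2 scale (SE 0.34, unadjusted p = 0.000207, adjusted p = 0.204), and its 3 replicates of 6S-A Ngn3 lay above the 3 of WT Ngn3. Sst differed by 5.48 (SE 1.45, unadjusted p = 0.00839, adjusted p = 0.585), also with no overlap of replicates. The share of all genes without overlap was not counted, here or in the other comparisons, so that such separation only describes these genes. In DESeq2 the adjusted p of Sst was 0.033, and Sst was the only 1 of the 4 genes that passed. Cck differed by 4.16 (SE 1.44, adjusted p = 0.765) and Ghrl by 1.30 (SE 0.98, adjusted p = 1). With 1 replicate left out, the difference ranged from 1.85 to 2.23 for Gal, from 4.62 to 9.81 for Sst and from 2.19 to 5.98 for Cck, and none of the 4 genes passed. At an unadjusted p of 0.05, 3 of the 4 genes passed, and 1380 of all genes.

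**Figure D3:**
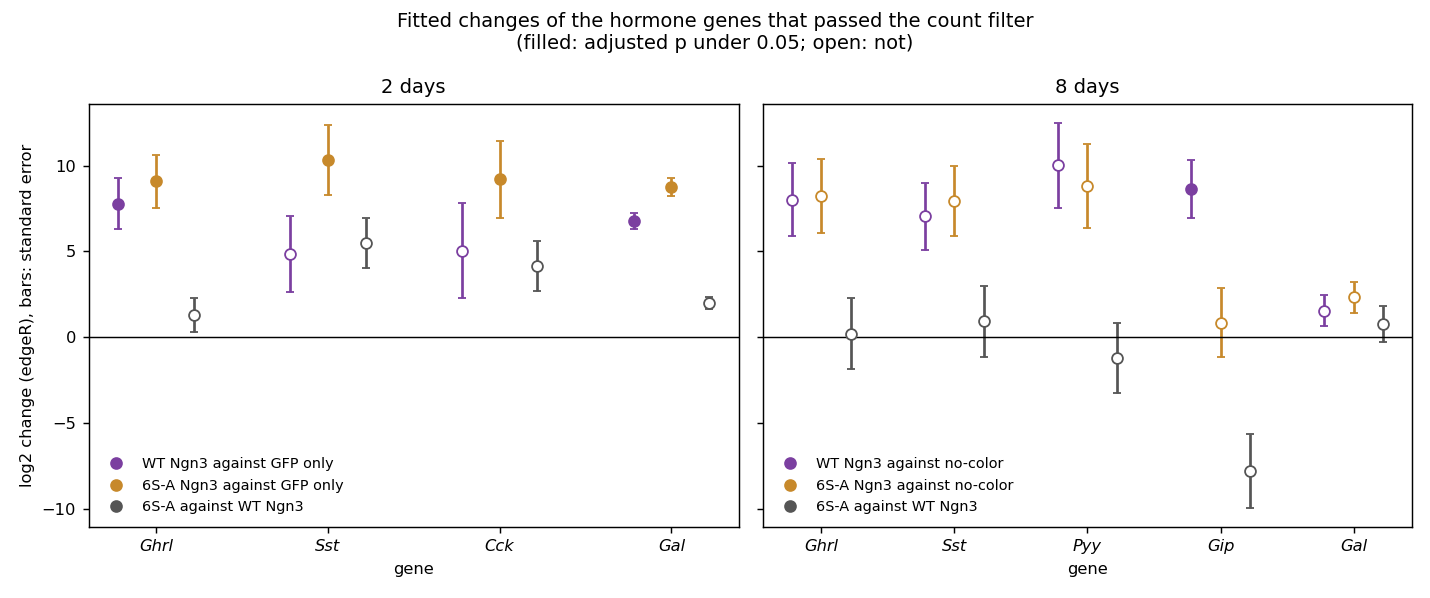
Fitted log2 changes from edgeR (points) with standard errors (bars) for the hormone genes tested at 2 days and at 8 days, against GFP only, against no-color cells, and of 6S-A against WT Ngn3, with filled points for an adjusted p under 0.05. At 2 days Gal had the shortest bars, and at 8 days the bars were long and the only filled point was Gip with WT Ngn3, while the fitted size for Cck depends on how a count of 0 is treated.

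At 8 days the Ngn3 cells were compared with the mean of both no-color groups, and the levels of 1 biological replicate set much of the result. Ghrl replicates with WT Ngn3 were at 1588, 1.32 and 2.82 CPM, and with 6S-A Ngn3 at 1694, 102.2 and 33.98 CPM. The no-color replicates were at 1.22, 0.74 and 4.59 CPM in WT organoids and at 2.23, 2.26 and 0.11 CPM in 6S-A organoids. The 6S-A Ngn3 replicates lay above all no-color replicates, and of the WT Ngn3 replicates only replicate 1 did. With the pool below the read limit added, WT Ngn3 replicate 2 stood at 73.6 CPM of Ghrl and 102.2 CPM of Sst, above all no-color replicates. The log2 fold changes were 8.03 (SE 2.14, adjusted p = 0.177) and 8.24 (SE 2.16, adjusted p = 0.124), and neither passed in edgeR over 19696 genes. With DESeq2, Ghrl passed in both comparisons, with an adjusted p of 0.000251 for 6S-A Ngn3.

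Sst also differed widely between replicates. WT Ngn3 replicates were at 1769, 8.90 and 4.43 CPM and 6S-A Ngn3 replicates at 1730, 1513 and 2.34 CPM, against 1.17 to 8.15 CPM in the no-color replicates. The fold changes of 7.04 (SE 1.97, adjusted p = 0.199) and 7.96 (SE 2.04, adjusted p = 0.115) on the log2 scale did not pass. For 6S-A Ngn3, 5 of 6 pools, all from replicates 1 and 2, lay above the highest no-color pool, while the pool of replicate 3, of passage 5, did not. Of the WT Ngn3 pools, 2 of 4 did, both of replicate 1.

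Pyy appeared almost only at 8 days. WT Ngn3 replicates were at 362.8, 0 and 0.20 CPM, 6S-A Ngn3 replicates at 47.0, 101.4 and 0.15 CPM, and no-color replicates at or below 0.41 CPM. Only 4 of the 12 no-color pools held Pyy reads, so that Pyy was tested at 8 days only because of its Ngn3 pools. With the replicate block the log2 fold change of 10.49 for 6S-A Ngn3 passed (adjusted p = 0.0472), while without it the values were 8.80 (SE 2.44, adjusted p = 0.143) for 6S-A Ngn3 and 10.02 (SE 2.48, adjusted p = 0.137) for WT Ngn3. By pool, technical repeat 1 of WT Ngn3 replicate 1 reached 645 CPM, and pool 2 of 6S-A Ngn3 replicate 2 reached 189 CPM. The sister pool of the latter held 0.253 CPM, so that pools of the same replicate differed widely.

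Gip was the only hormone gene that passed at 8 days in edgeR without a block and with the reported filter, and it rested on 1 pool. With filterByExpr, the filter of edgeR on low counts, Gip was not tested and Pyy passed for WT Ngn3 (adjusted p = 0.0396). That setting called 1.04% of all genes in either direction. With the reported filter, the log2 fold change of Gip with WT Ngn3 was 8.64 (SE 1.69, adjusted p = 0.0367), where 0.741% of all genes rose and 0.173% fell. Of 1467 Gip reads in the WT Ngn3 group, 1464 were in pool 1 of replicate 1, at 295 CPM, and the other pools held at most 0.659 CPM. Without that pool the log2 fold change was 1.27 (adjusted p = 0.796), and the call was also lost without any one no-color replicate. With 6S-A Ngn3, no pool exceeded 1.00 CPM. The same pool of WT Ngn3 also held 3063 CPM of Sst, 1402 CPM of Ghrl and 3.83 CPM of Ppy. Without WT Ngn3 replicate 1, the log2 fold changes were 0.17 for Ghrl, 0.62 for Sst, 0.33 for Pyy and 1.53 for Gip.

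Galanin was low at 8 days. WT Ngn3 replicates were at 5.74, 6.92 and 0.40 CPM, 6S-A Ngn3 replicates at 9.30, 2.00 and 10.2 CPM, and no-color replicates between 0 and 1.90 CPM. Neither fold change passed, at 1.55 (SE 0.90, adjusted p = 0.587) and 2.32 (SE 0.89, adjusted p = 0.262) on the log2 scale. With 6S-A Ngn3, 0 of 5 tested hormone genes passed in edgeR without a block and with the reported filter, where 1.37% of all genes rose and 0.34% fell. With filterByExpr 3 passed, Sst (adjusted p = 0.0269), Ghrl (adjusted p = 0.0311) and Pyy (adjusted p = 0.0424), and without any filter on low counts 4. Of all genes, 2.15% with filterByExpr and 3.86% without any filter were called in either direction. At an unadjusted p under 0.05 there were 4 of 5 hormone genes and 2378 of 19696 genes. DESeq2 gave 3 of the hormone genes an adjusted p, and 2 passed. Both comparisons share the no-color samples. Cck was seen at 8 days in 1 WT Ngn3 pool (7.71 CPM) and 2 pools of 6S-A Ngn3 (15.1 and 12.7 CPM), all of replicate 1, and in 1 no-color pool with 1 read.

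Between 6S-A and WT Ngn3 at 8 days no hormone gene passed in DESeq2 or in edgeR with the reported filter. Without any filter on low counts edgeR called Gip, where 0.0296% of all genes were called in either direction. With the reported filter edgeR called 0% of all genes, with 415 at an unadjusted p under 0.05. The log2 differences were 0.21 (SE 2.09) for Ghrl, 0.92 (SE 2.05) for Sst, -1.22 (SE 2.06) for Pyy and 0.77 (SE 1.07) for Gal. These errors leave room for large differences in either direction. Gip differed by -7.79 (SE 2.15, unadjusted p = 0.00334, adjusted p = 1), again through the same pool of WT Ngn3. In the joint fit of all 7 groups, the change of the difference between the forms from 2 to 8 days passed for none of the 7 hormone genes tested nor for any of 24945 genes, of which 750 had an unadjusted p under 0.05.

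Over time, Gal fell with 6S-A Ngn3, and no other hormone gene passed with either form in edgeR without a block and with the reported filter. From 2 to 8 days Gal fell by 5.05 on the log2 scale with 6S-A Ngn3 (SE 0.77, adjusted p = 0.00855), where 0.2% of all genes fell, and its 2-day replicates (219.6 to 279.5 CPM) did not overlap its 8-day replicates (2.00 to 10.2 CPM). This call was lost without 2-day replicate 1 of 6S-A Ngn3 (adjusted p = 0.061). With WT Ngn3 the change was -3.88 (SE 0.76, adjusted p = 0.0515), also without overlap, from 51.9 to 83.7 CPM down to 0.40 to 6.92 CPM. In the same fit 0.116% of all genes were called in either direction with WT Ngn3. At an unadjusted p under 0.05 there were 4 of 7 hormone genes and 2049 of 24945 genes. DESeq2 called 3 of the 5 to which it gave an adjusted p, Sst, Pyy and Gal. With a replicate block, edgeR called Gal (adjusted p = 0.0276) and Gip (adjusted p = 0.0122) with WT Ngn3, and Gal was also called with filterByExpr, without the near-identical repeats and without pool 1 of replicate 1. Without any filter on low counts edgeR called 5 hormone genes with each form, where 1.13% (WT) and 1.93% (6S-A) of all genes were called. Without passage 5 it called Gip with WT Ngn3. Pyy was at least 796-fold and Gip at least 330-fold higher at 8 than at 2 days with WT Ngn3 when 3 reads were assumed in each 2-day replicate, both led by the pool named above (adjusted p = 0.43 and 0.0672). Ghrl changed by 2.22 (SE 1.82) with WT Ngn3 and 1.14 (SE 1.77) with 6S-A Ngn3. Neurog3 mRNA was itself lower at 8 days, by -3.46 with 6S-A Ngn3 (adjusted p = 0.01) and -2.61 with WT Ngn3 (adjusted p = 0.0758), and its part in the fall of Gal was not tested.

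The pools also show which hormones occurred together, although 50 cells share a pool and a shared pool does not mean a shared cell. Among the 36 Ngn3 pools of 2 days, 14 held at least 100 CPM of Ghrl and 7 held at least 100 CPM of Sst, and 2 pools held both. Ghrl alone passed this level in 12, Sst alone in 5 and neither in 17. Ghrl and Gal passed together in 5 pools, Ghrl alone in 9 and Gal alone in 10. Sst and Gal passed together in 3, Sst alone in 4 and Gal alone in 12. Spearman's rho over the 36 pools was 0.144 for Ghrl and Sst, -0.151 for Ghrl and Gal and 0.346 for Sst and Gal. Within 6S-A Ngn3 (18 pools) it was 0.267, -0.465 and 0.179. Within WT Ngn3 (18 pools) it was -0.175, -0.127 and 0.061. The pools of one replicate share their organoids, so that these values only describe the pools.

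At 8 days the pools with at least 100 CPM of Ghrl all held at least 100 CPM of Sst. Of the 10 Ngn3 pools, 6 held at least 100 CPM of both, 0 held Ghrl alone, 1 held Sst alone and 3 held neither. The rho was 0.43 over the 10 pools, 0.143 within 6S-A Ngn3 (6 pools) and 0.6 within WT Ngn3 (4 pools). The 6 pools were all 5 pools of replicate 1 and 1 pool of 6S-A Ngn3 replicate 2. Both Pyy pools above 100 CPM also held Sst above 100 CPM, while 5 pools held Sst without Pyy at that level (rho 0.77). One of the Pyy pools had Ghrl above 100 CPM and the other had 22.7 CPM. Replicate and hormone level moved together here, since no pool of replicate 3 reached 100 CPM of any hormone gene.

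**Figure D4:**
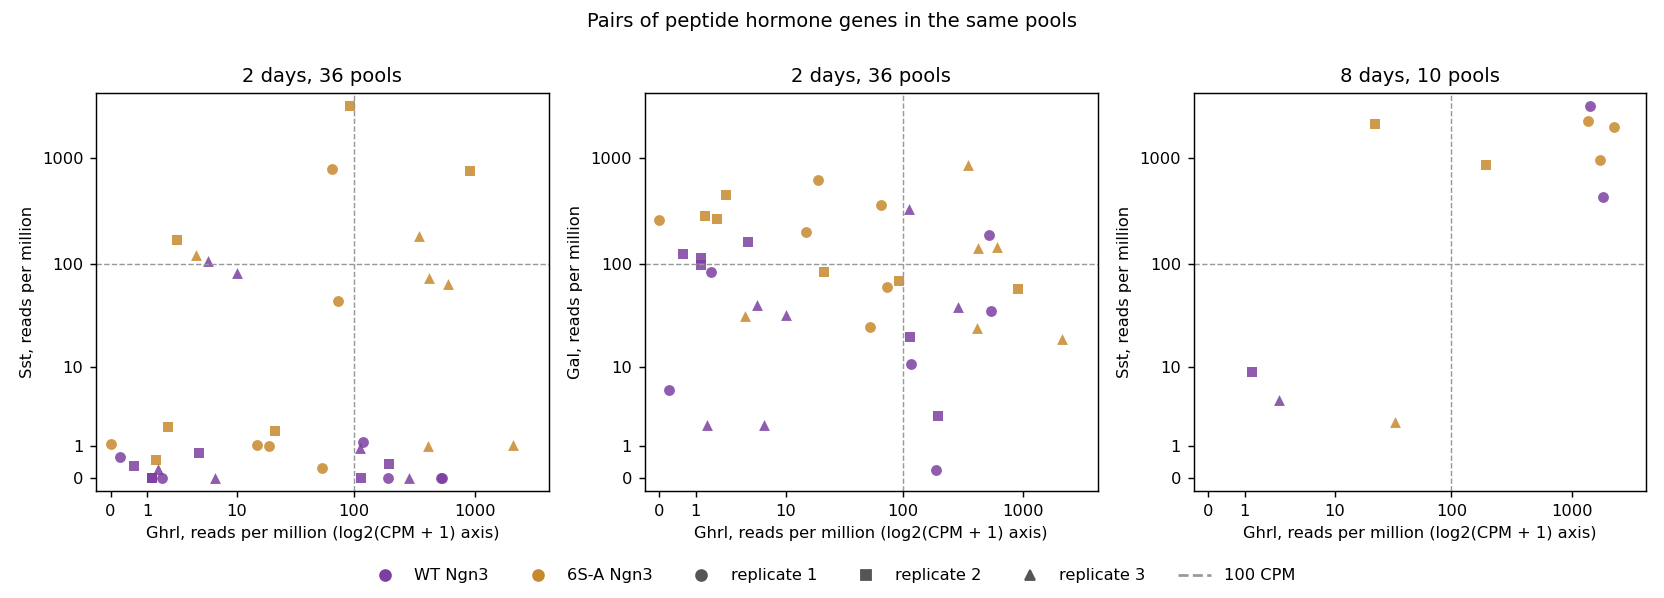
Levels of pairs of hormone genes in the same pools on log2(CPM + 1) axes, for Sst and Gal against Ghrl at 2 days (36 pools) and Sst against Ghrl at 8 days (10 pools), with color for the form of Ngn3, symbol for the replicate and dashed lines at 100 CPM. At 2 days 2 pools lie beyond both lines for Ghrl and Sst, and at 8 days 6 of 10 do.

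The genes most like each hormone gene over the 36 Ngn3 pools of 2 days were ranked by Pearson's r of log2(CPM + 1) among 16883 genes. For Ghrl they included Irs4 (r = 0.839), an insulin receptor substrate, and Gng4 (0.749), a G protein gamma subunit. For Irs4, r was 0.793 within WT Ngn3 and 0.878 within 6S-A Ngn3 (18 pools each). The genes most like Sst were Th (0.706), which encodes tyrosine hydroxylase of catecholamine synthesis, Zfand3 (0.690) and Rnf207 (0.678). For Zfand3 r was 0.458 within WT and 0.698 within 6S-A Ngn3, and for Rnf207 it was 0.874 and 0.548. No WT Ngn3 pool held more than 3 reads of Rnf207, the limit for a count of 0. The highest CPM of both Rnf207 and Sst there were in repeats 2 and 3 of replicate 3, a near-identical pair, so that the 0.874 rests on few reads. Within WT Ngn3 the r of Sst with Th was 0.415, where 9 of 18 Sst values were 0, and within 6S-A Ngn3 it was 0.856. For Gal the highest values were lower, at 0.598 for Slc27a3, 0.577 for B4galt1, a galactosyltransferase, and 0.569 for Slc24a4, over pools of both forms, whose Gal replicates did not overlap. Within WT and within 6S-A Ngn3 r was 0.377 and 0.50 for Slc27a3, 0.610 and 0.065 for B4galt1, and 0.467 and 0.410 for Slc24a4. The level of Neurog3 in a pool was not a close guide to any of them, with rho between -0.418 (Sst, WT Ngn3) and 0.207 (Sst, 6S-A Ngn3) over 18 pools.

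**Figure D5:**
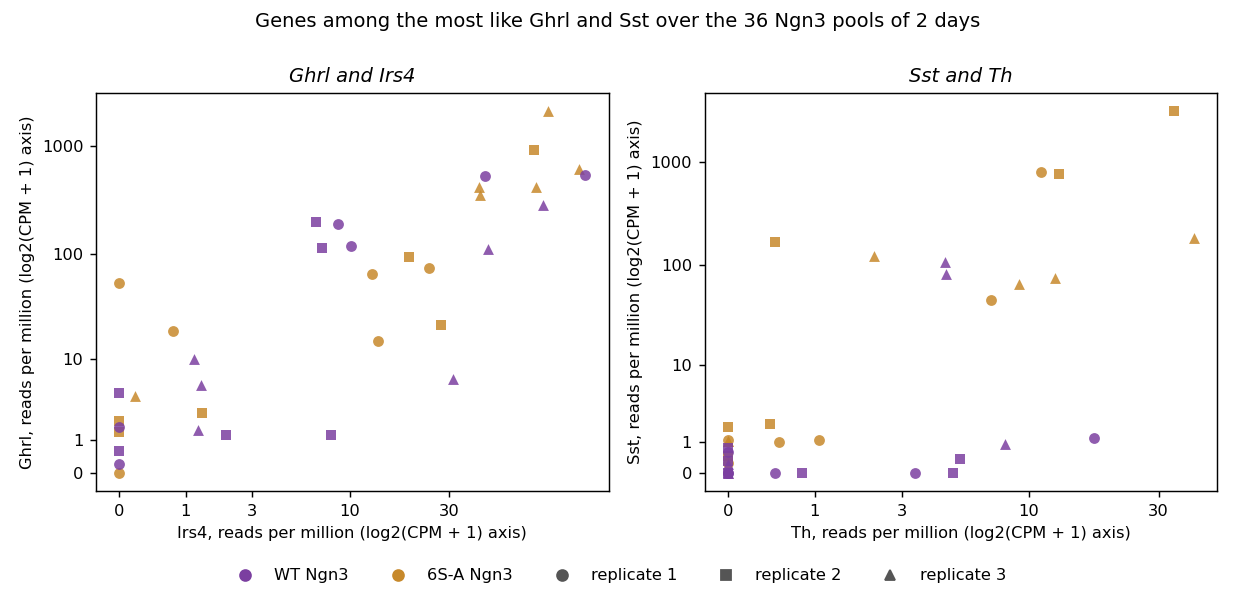
Ghrl against Irs4 and Sst against Th, genes among the most like them over the 36 Ngn3 pools of 2 days, on log2(CPM + 1) axes, with color for the form of Ngn3 and symbol for the replicate. Pools with over 100 CPM of Ghrl all held Irs4 at 6.76 CPM or more, whereas several WT Ngn3 pools held Th reads with little or no Sst.

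Some of the genes that turn prohormones into hormones rose at 2 days. Of 13 processing genes tested, 7 rose and 1 fell with WT Ngn3 and 7 rose and 2 fell with 6S-A Ngn3, with medians of 0.70 and 1.31 on the log2 scale against 0.0148 and 0.0176 over all genes, of which 6.56% and 9.43% rose and 5.23% and 8.62% fell. These shares are the background of every list count at 2 days given here. Genes with fewer than 5 reads in all control pools were tested only because of their Ngn3 pools, so that their calls and the list counts that hold them are a description. Among the genes named for these lists they were Pcsk2, Ptprn2, Sstr1, Sstr3, Neurod1, Neurog3, Rfx6 and Iapp at 2 days. At 8 days they were Cadps, Mboat4, Nkx2-2, Pcsk1n, Tff3 and Tph1. Pcsk1, a prohormone convertase, rose by 6.99 with WT Ngn3 and by 7.91 with 6S-A Ngn3. Pcsk2, another convertase, had 2 reads in GFP only cells and stood at 7.47, 5.11 and 36.8 CPM with WT Ngn3 and at 32.9, 19.4 and 33.8 CPM with 6S-A Ngn3. Mboat4, the acyltransferase that activates ghrelin, rose by 6.86 (SE 1.13, adjusted p = 0.00547) and 7.82 (SE 1.13, adjusted p = 0.00176). Scg5, the chaperone of Pcsk2, rose by 4.31 with WT Ngn3, and Pcsk1n, an inhibitor of Pcsk1, by 5.07 with 6S-A Ngn3. Qpct fell with both forms, and Pam, the amidating enzyme, fell with 6S-A Ngn3. At 8 days 3 of 13 rose with WT Ngn3 and 5 of 13 with 6S-A Ngn3, and 0 fell, where 0.741% and 1.37% of all genes rose and 0.173% and 0.34% fell, the background of the list counts at 8 days. Pcsk1 rose by 7.46 and 8.81. Mboat4 stood at 9.0, 0 and 0 CPM with WT Ngn3 and at 38.8, 0.4 and 0 CPM with 6S-A Ngn3, highest in the replicates with the highest Ghrl, and did not pass (adjusted p = 0.339 and 0.154).

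Most granule genes rose at 2 days. In numbers, 8 of 12 tested rose with WT Ngn3 and 10 of 12 with 6S-A Ngn3, and 0 fell (medians 4.10 and 5.49), where 6.56% and 9.43% of all genes rose. With WT Ngn3, Chgb rose by 9.02, Ptprn2 by 8.55, Chga by 8.15 and Cadps by 7.30, and with 6S-A Ngn3 the same 4 rose by 8.59, 9.04, 8.99 and 7.79. Chga and Chgb encode granins, Ptprn2 a granule membrane protein and Cadps a factor that primes granules for release. At 8 days 5 of 12 rose with WT Ngn3 and 6 of 12 with 6S-A Ngn3 (medians 5.26 and 5.24), where 0.741% and 1.37% of all genes rose. Scg3 rose by 6.83 and 7.94. Cadps, with 3 reads in all no-color replicates, stood at 21.4, 1.65 and 2.42 CPM with WT Ngn3 and at 32.6, 17.9 and 9.37 CPM with 6S-A Ngn3.

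Receptors for these hormones were mostly too low to be tested, with 10 of 22 tested at 2 days and 6 at 8 days. With WT Ngn3 3 of 10 rose, where 6.56% of all genes did, the somatostatin receptors Sstr2 (2.65) and Sstr3 and the neurotensin receptor Sort1 (0.98). With 6S-A Ngn3 5 of 10 rose, where 9.43% of all genes did, among them Sstr3, Sstr1, Gipr (3.10), the receptor for the Gip product, and Sstr2 (2.78). Sstr3 had 0 reads in GFP only cells and stood at 0.80, 0.44 and 0.16 CPM with WT Ngn3 and at 0.64, 1.41 and 3.02 CPM with 6S-A Ngn3. Sstr1 had 1 read in GFP only cells and stood at 1.08, 0.11 and 1.60 CPM with 6S-A Ngn3. The medians of the list were 1.63 and 2.26. None fell at 2 days. None passed at 8 days in either comparison in edgeR (medians 0.92 and 3.45).

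Transcription factors of hormone cells rose in 12 of 17 tested with either form at 2 days, with medians of 6.37 and 6.43, where 6.56% and 9.43% of all genes rose. The 12 include Neurog3, the induced transgene, whose rise the design fixes. Neurod1 had 1 read in GFP only cells and stood at 48.4, 23.6 and 150.3 CPM with WT Ngn3 and at 75.0, 56.6 and 106.8 CPM with 6S-A Ngn3. Rfx6 had 3 reads in GFP only cells and stood at 44.5, 16.1 and 106.8 CPM with WT Ngn3 and at 87.6, 63.4 and 89.7 CPM with 6S-A Ngn3. Hhex, a delta cell factor, fell with both, and Nkx6-1, a beta cell factor, with 6S-A Ngn3. At 8 days 6 of 16 rose with WT Ngn3 and 9 of 16 with 6S-A Ngn3 (medians 5.85 and 6.57), Neurog3 included with both, and 0 fell, where 0.741% and 1.37% of all genes rose. Rfx6 rose by 7.21 and 8.96 and Insm1 by 6.61 and 7.39. Nkx2-2 (6.74) and Neurod1 (6.54) were the other leading genes of WT Ngn3, and Isl1 (8.72) that of 6S-A Ngn3. From 2 to 8 days Insm1 fell by 2.64 with WT Ngn3 and by 2.18 with 6S-A Ngn3.

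The insulin genes were at or near 0 in every replicate. Ins2 had 0 reads in every replicate, and Ins1 reached 0.1 CPM in 1 no-color replicate and 0 in all others. Iapp, the amylin gene, was the only 1 of 4 beta cell peptides with enough reads to be tested. At 2 days it stood at 0.11, 0.04 and 0 CPM in GFP only cells and at 0.79, 0.73 and 0.97 CPM with 6S-A Ngn3. Tested only because of its Ngn3 pools, it passed with 6S-A Ngn3 (adjusted p = 0.00917) and not with WT Ngn3 (adjusted p = 0.255). At 8 days Iapp was at 32.1, 0.3 and 0 CPM with WT Ngn3 and at 32.6, 52.7 and 0.1 CPM with 6S-A Ngn3 and did not pass (adjusted p = 0.199 and 0.0636). Of 21 other neuroendocrine peptide genes, 12 were tested at 2 days and 6 at 8 days, and 0 passed in any comparison in edgeR (medians 1.05 and 1.25 at 2 days, 0.76 and -0.07 at 8 days). In the comparisons of 6S-A with WT Ngn3, 0 genes of any of these lists passed. All lists were chosen with earlier results of these data known, so that their counts describe them and do not test them.

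Markers of other cell types moved with Ngn3 as well. At 2 days 8 of 14 ductal markers fell and 1 rose with each form, where 5.23% (WT) and 8.62% (6S-A) of all genes fell, and summed levels were 20641 to 22301 CPM in GFP only, 14059 to 15138 with WT Ngn3 and 12099 to 12849 with 6S-A Ngn3 replicates. At 8 days 2 and 3 of 14 fell, where 0.173% and 0.34% of all genes did, with sums of 17162 to 21106 CPM with WT Ngn3, 11161 to 28747 with 6S-A Ngn3 and 13386 to 39494 in no-color replicates. Of 12 gastrointestinal markers, 9 were tested at 2 days, and Tff3 and Tff2, trefoil peptides of mucous and secretory cells, rose with both forms, by 9.90 and 3.86 with WT Ngn3. With 6S-A Ngn3 Vil1 and Dclk1 fell, and the medians of the list were -0.18 with WT and -0.59 with 6S-A Ngn3. The list summed to 230 to 359 CPM with WT and 262 to 328 CPM with 6S-A Ngn3 against 75.9 to 93.2 CPM in GFP only, of which Tff3 gave 148.9 to 275.6 CPM in the Ngn3 replicates. At 8 days Tff3 rose with both forms, and Tph1, an enzyme of serotonin synthesis, stood at 74.1 CPM in replicate 2 of WT Ngn3 alone, with 2 reads in all no-color replicates. Of the 10 stellate and mesenchymal markers 8 were tested at 2 days, and their median log2 change was 0.05 for WT and -0.06 for 6S-A Ngn3. Of these 1 rose with each form, Vim, by 2.77 and 2.67, at 50.7 to 110 CPM with WT and 54.6 to 82.3 CPM with 6S-A Ngn3 against 7.10 to 13.7 CPM in GFP only. The list, most of it Vim, summed to 54.2 to 115 CPM with WT and 58.6 to 83.9 CPM with 6S-A Ngn3 against 10.4 to 18.2 CPM in GFP only, with Col3a1 at 0. The 5 endothelial markers summed to 1.74 to 6.29 and 2.87 to 11.1 CPM against 0.727 to 1.95 CPM, and Pecam1 rose by 4.08 with 6S-A Ngn3. The 7 immune markers summed to 2.49 to 19.6 CPM over all groups, and Cd74 fell at 2 days. The part of these markers in the hormone levels was not tested.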

How the data were processed

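Pools of 50 FACS-sorted cells were processed as Smart-seq2 libraries, and the 77 libraries of 7 groups were sequenced as single-end reads. The authors deposited counts, the reads that HTSeq 0.5.3p3 assigned to each gene of Ensembl release 81 after alignment with GSNAP to mm10, without normalization, per the labels and the study's methods. The strand setting of the counting is not given in the sources used here. Of all reads in the table, 22.5% were not aligned, 14.4% fell on no feature, 8.06% were ambiguous and 0.0634% were spike-in. These rows stayed out of library sizes and tests. Symbols were matched for 45143 of 46078 identifiers.

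The study's limits retained 76 of 77 libraries (spike-in share below 30%, more than 1000000 reads on genes, more than 10000 genes detected). CPM are scaled to 1000000 reads on genes. Technical repeats of a biological replicate were added up, and edgeR 4.0.16 (R 4.3.3) compared the groups (TMM, robust dispersion, quasi-likelihood test, Benjamini-Hochberg adjustment over all genes tested, threshold 0.05). Testing needed reads in 5 or more libraries of the time point. Its groups entered 1 fit, and the 7 groups were fitted jointly to compare 8 with 2 days. The labels do not say that replicates came from separate cultures or animals, so that p-values measure the spread between these samples. DESeq2 1.42.0 was an alternative, with RLE size factors, other filters, the first technical repeat alone, all libraries, the near-identical repeats left out, each group's own no-color cells, a replicate block, and each replicate left out in turn. Scripts were tested on simulated data.

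Named are the 10 hormone genes, at most 4 called genes of largest change per other list and comparison, Ins1, Ins2, Neurog3, Mboat4, Pcsk1 and Pcsk2, and the 3 genes most like a hormone gene with reads in at least 18 of the 36 Ngn3 pools of 2 days. Pam, Qpct, Hhex, Nkx6-1 and Cd74, and values of named genes in comparisons where they did not lead, were added after their values were seen. One gene named by this rule is left out here. The members and lists were chosen with earlier results of these data known. The level of 100 CPM, the comparisons without passage 5 and without pool 1 of WT Ngn3 replicate 1, and the gene limit of the pairing check were chosen after seeing the data. Same-numbered replicates deviated together, with correlations of 0.136 to 0.587 at 2 days (9 pairs) and 0.123 to 0.704 at 8 days (18 pairs) over genes above 16 CPM, and 0.044 to 0.184 and 0.069 to 0.478 over all tested genes. The numbers were read as pairing samples within a time point, but the reported fits do not use this pairing. The replicate block, an alternative, does. Between 6S-A and WT Ngn3 at 2 days edgeR called 3 of 23844 genes without the block and 147 with it. For WT Ngn3 against GFP only it called 2810 without the block and 4291 with it. What the numbers stand for is not given in the sources used here.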

Additional observations from a re-analysis of the deposited data

Results flagged for a closer look

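In the 8-day groups, which hold 4 to 6 pools, a pool stood far from the others in 8 of 20 combinations of hormone gene and group by Dixon's criterion. Its limits give about 1 in 20 only for independent values of a normal distribution. CPM are skewed, pools of one replicate are technical repeats, and the same pools recur across genes, so that 8 of 20 measures no excess. Where most pools are at 0, as for Ppy and Cck with WT Ngn3, any count in 1 pool of 4 meets the criterion. Of the 8 cases, 4 were pool 1 of WT Ngn3 replicate 1, with 3063 CPM of Sst (others 4.43 to 430), 645 CPM of Pyy (others 0 to 70.5), 295 CPM of Gip (others 0 to 0.659) and 3.83 CPM of Ppy (others 0). Pool 2 of the same replicate held 7.71 CPM of Cck, and the others 0. With 6S-A Ngn3, pool 2 of replicate 2 held 189 CPM of Pyy (others 0.146 to 56.6), and pool 2 of replicate 1 held 1.00 CPM of Gip (others 0 to 0.195). In no-color cells of WT organoids, the pool of replicate 3, of passage 5, held 4.59 CPM of Ghrl (others 0.193 to 1.73).

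The pool of WT Ngn3 replicate 2 at 8 days that fell below the read limit, with 849278 reads, held 332 CPM of Ghrl (282 reads) and 436 CPM of Sst (370 reads), against at most 4.59 and 15.4 CPM in no-color pools. The retained pool of that replicate held 1.32 and 8.90 CPM. The left-out pool also held 1.18 CPM of Pyy, 2.35 CPM of Gip and 5.89 CPM of Gal, against no-color maxima of 0.656, 0.212 and 3.48 CPM, and the Pyy, Gip and Gal values rest on 1, 2 and 5 reads. With both pools the replicate stood at 73.6 CPM of Ghrl and 102.2 CPM of Sst.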

How the results depend on the processing

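The number of hormone genes called stayed within 1.5 times the reported one in 47 of 70 alternatives that left no replicate out and in 38 of 54 that did. Where it did not, the cause was not tested, except that a left-out sample or pool lowers the sample size. Against GFP only at 2 days, the first technical repeat alone called 0 with both forms, the replicate block called 1 with WT Ngn3 (Gal), and no filter called 3 with 6S-A Ngn3, without Cck. Between 6S-A and WT Ngn3 at 2 days DESeq2 called 1. For WT Ngn3 against no-color cells at 8 days, no filter on low counts called 5, DESeq2 2, and the own no-color cells, the data without passage 5 (Gip adjusted p = 0.0526) and those without pool 1 of replicate 1 called 0 each. The replicate block kept 1, Gip, and filterByExpr gave 1, Pyy in place of Gip, which it filtered out. For 6S-A Ngn3 against no-color cells edgeR's filterByExpr called 3, no filter 4, DESeq2 2 and the replicate block 1. Between the forms at 8 days no filter called 1. From 2 to 8 days, WT Ngn3 gave 1 with filterByExpr, without the near-identical repeats, without passage 5 and without pool 1, 2 with the replicate block, 3 with DESeq2 and 5 with no filter, and 6S-A Ngn3 gave 0 with the first technical repeat and 5 with no filter. Leaving out 1 replicate gave 1 to 2 calls for WT and 2 to 4 for 6S-A Ngn3 against GFP only, 0 to 1 for WT Ngn3 against no-color, and 0 to 1 over time for either form, where WT Ngn3 gained Gip without 8-day replicate 2 or 3. The block added Pyy for 6S-A Ngn3 against no-color and Gip and Gal for WT Ngn3 over time, removed Ghrl for WT Ngn3 against GFP only, and changed no other call. In either direction, the block called 18% (WT) and 24.8% (6S-A) of all genes against GFP only, and 2.4% and 3.57% against no-color cells. No filter called 10.1% and 14.6% against GFP only, and 2.68% and 3.86% against no-color cells. Over time the block called 0.305% and 0.93%, and no filter 1.13% and 1.93%. No such share is given here for DESeq2.

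Of 345 log2 values under the other alternatives, 7 reversed. Sst with WT Ngn3 against GFP only was -1.40 with the first technical repeat. Of 6S-A against WT Ngn3 at 8 days, Pyy was 0.67 with the replicate block and 1.16 without pool 1, and Gal was -0.15 without passage 5. Over time with 6S-A Ngn3, Ghrl was -0.49 with the first technical repeat and -0.78 with the replicate block, and Cck 0.12 without passage 5. None of these was called in the report. With 1 replicate left out, 12 of 274 reversed, within ranges of -0.089 to 2.07 (Ghrl, 6S-A against WT Ngn3 at 2 days), -2.84 to 8.06 (Ghrl) and -2.35 to 8.51 (Pyy) at 8 days, -0.54 to 2.38 (Gip, 6S-A Ngn3 against no-color), -5.60 to 2.99 (Ghrl) and -4.52 to 4.48 (Cck) over time with WT Ngn3, and -1.90 to 2.53 (Ghrl) and -8.61 to 1.60 (Cck) with 6S-A Ngn3. With all 77 libraries, the adjusted p of WT Ngn3 against no-color was 0.0974 for Ghrl and 0.13 for Sst. Of 350 shares of pools with reads, 42 moved, with a limit of 1 CPM (18), of 3 reads (14) or with thinning (10). The no-filter calls at 8 days include adjusted p far below all others. Depth limits statements on Gcg, Ppy, Gast and Nts, where the limit for 0 reads is 2.00 CPM in the shallowest pool.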
